A study of Mus musculus with 10 samples.

Results

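Matricellular proteins are secreted into the extracellular matrix and act on cells through it. Their transcripts were followed here in the OP9 stromal cell line, grown either as a reaggregate or as a flat culture. The 10 genes were taken by name from the table of expression values, which lists 26888 genes. They were the thrombospondins Thbs1, Thbs2, Thbs3 and Thbs4, the fasciclin domain proteins Postn and Tgfbi, Tnc, Sparc, Matn2 and Fn1. Of these, 9 exceeded 0.5 RPM (the mapped reads of a gene scaled to the total of its library) in at least 1 library and were tested, and Thbs4 did not.

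Most proteins of this class add little to the tensile strength of a matrix. They bind collagens, fibronectin, growth factors and integrins, and thereby alter how cells attach, migrate and receive signals. Many are abundant in embryonic tissue, healing wounds and bone, and marrow stroma that supports blood formation deposits several of them.

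The study sought secreted regulators of hematopoietic stem cell maturation, and OP9 cells served as its supportive stroma. OP9 derives from mouse calvaria and carries the op/op mutation, which removes functional macrophage colony-stimulating factor, on the strain background labelled (C57BL/6xC3H)F2-op/op. There were 10 libraries, each from OP9 cells of this genotype in medium with 20% fetal calf serum, sequenced as 50-base single-end reads with a kit that does not mark the strand. The 6 reaggregates were made by pelleting a single-cell suspension and holding the pellet for 48 h on a 0.8 µm filter at the liquid-gas interface. Reaggregates 1, 3 and 5 received no IL-3, and reaggregates 2, 4 and 6 received IL-3 at 200 µg/µl, as the labels write the dose. Reaggregates were dissociated with collagenase and dispase before RNA was extracted, so culture form and this step cannot be told apart. The 4 flat cultures were submersed in medium, and their labels do not state whether IL-3 was present. The labels give the de Bruijn lab as the source of flat cultures 2 and 4, and they name no lab for flat cultures 1 and 3 or for the reaggregates. The study states that its flat-culture cells had been kept earlier by either the Medvinsky or the de Bruijn group. It describes variance between cell sources as equivalent to that between passage numbers. The labels do not state that the libraries came from separate cultures, so p-values measure only the spread between these samples. OP9 is a single line, and in RNA from whole cultures fewer cells of a type and less RNA per cell cannot be told apart.

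The commonest low RPM value of each library was taken as that of a single read. It corresponded to 7.35 to 9.43 M mapped reads per reaggregate and 8.26 to 8.70 M per flat culture. Smaller values exist, because reads with several positions were divided. A floor of 3 reads was therefore 0.318 to 0.408 RPM, and it covers counting error only. Together the 10 genes took between 0.884% of all RPM in flat culture 1 and 2.91% in reaggregate 5. Fn1 supplied most of this, and it ranked between position 1 and position 5 among all genes in every library.

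Expression of the class was higher in reaggregates for 5 genes, Postn, Matn2, Thbs3, Thbs2 and Sparc. For each of them every reaggregate lay above every flat culture. No member was called lower. A gene was called when its mean log2(RPM + 0.5) differed by at least 1, which is a 2-fold difference, with a limma p-value of at most 0.05 after Benjamini-Hochberg adjustment over the 16933 genes tested. Across all of these genes, 1239 (7.32%) were called higher and 1106 (6.53%) lower in reaggregates. Every reaggregate exceeded every flat culture for 1320 genes (7.8%) and lay below every flat culture for 1922 (11.4%). Among the 9 members tested, 8 had the higher mean in reaggregates, against 8756 of the 16933 genes. The median log2 difference was 1.06 for the members and 0.04 for all genes. The members and the gene lists below were chosen with earlier results of these data known. The study itself had already named Matn2 and Thbs2 as raised by reaggregation in these cells. Contrasts of the members or lists with all genes are therefore descriptive and no independent test of the class. Without flat culture 3 the genes called higher numbered 2121, and without flat culture 4 they numbered 766. The members called higher numbered 3 without flat culture 4. When the consecutive reaggregates 1 and 2, 3 and 4, and 5 and 6, which resembled each other most, were averaged, they numbered 2, Postn and Matn2. In that fit 312 of all genes were called higher and 429 lower.

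**Figure D1:**
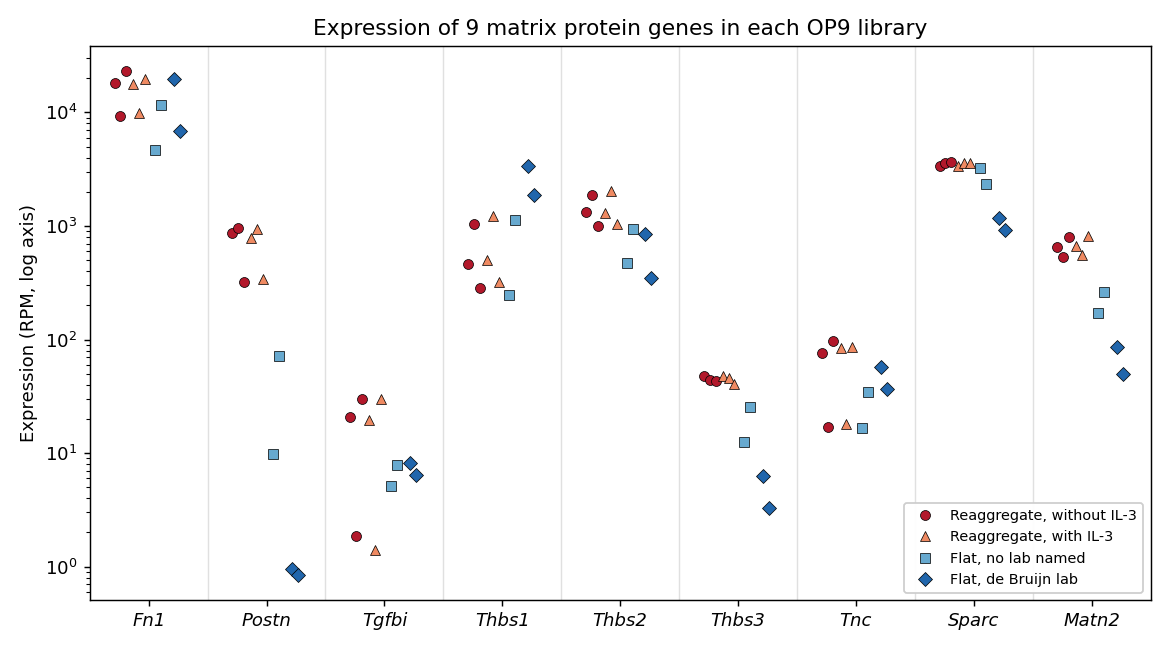
Expression of the 9 tested genes in RPM on a log axis, with 1 point per library, reaggregates as red circles (without IL-3) and orange triangles (with IL-3), and flat cultures as light blue squares (no lab named) and dark blue diamonds (de Bruijn lab). Points of the 6 reaggregates lie above all 4 flat cultures for Postn, Matn2, Thbs3, Thbs2 and Sparc, and Postn spans 0.850 to 71.0 RPM among the flat cultures.

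Fibronectin, encoded by Fn1 (ENSMUSG00000026193, chromosome 1, 71632094 to 71699774, minus strand of NCBI37/mm9, the build of all gene positions given here), is assembled by cells into fibrils to which many matricellular proteins bind. Fn1 measured 9280 RPM in the lowest reaggregate, 17900 at the median and 22900 in the highest. In flat cultures 1 to 4, Fn1 stood at 4690, 19700, 11500 and 6870 RPM. The groups overlapped, because flat culture 2 was as high as most reaggregates and reaggregates 3 and 4 were below flat culture 3. The log2 difference was 0.73 (SE 0.46, adjusted p = 0.234), and an exact two-sided permutation test over the 210 assignments of the libraries gave p = 0.138. Fn1 was not called under any of 26 alternative settings of this comparison, over which the difference ran from 0.40 to 1.10. Leaving out flat culture 1 gave 0.41 and leaving out flat culture 2 gave 1.10 (adjusted p = 0.0877, in a range of 0.0877 to 0.691).

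SPARC, or osteonectin, is a collagen- and calcium-binding glycoprotein of bone and remodeling tissue. Sparc (ENSMUSG00000018593, chromosome 11, 55208002 to 55233582, minus strand) measured 3360 RPM in the lowest reaggregate, 3570 at the median and 3660 in the highest. Flat cultures 1 to 4 held 3210, 1180, 2350 and 923 RPM. Reaggregates were nearly uniform for Sparc, with a ratio of 1.09 between the highest and the lowest, whereas the flat cultures spread over a ratio of 3.48 and flat culture 1 came close to the reaggregates. Sparc rose by 1.06 on the log2 scale in reaggregates (SE 0.32, adjusted p = 0.0299), with 6 of 6 reaggregates above all flat cultures. The exact permutation p was 0.00476, the smallest value that 210 assignments allow when each library counts on its own. The call was made under 10 of 26 alternatives, the fewest of the 5 genes, over which the difference ran from 0.36 to 1.75 and the adjusted p from 7.33e-05 to 0.272. Against only the flat cultures with no lab named, the Sparc difference was 0.36 (adjusted p = 0.272). With consecutive reaggregates averaged, it kept its size at 1.06 but was not called (adjusted p = 0.183). Leaving out flat culture 4 gave 0.76 (adjusted p = 0.0950) and leaving out flat culture 2 gave 0.88 (adjusted p = 0.0835). Leaving out reaggregate 1, 2, 3 or 4 kept the difference at 1.05 to 1.07 but moved the adjusted p to 0.0548, 0.0545, 0.0547 and 0.0554, respectively.

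Periostin is a fasciclin domain protein of periosteum and other collagen-rich tissue that binds integrins and promotes collagen crosslinking. Postn (ENSMUSG00000027750, chromosome 3, 54165031 to 54194961, plus strand) measured 322 RPM in the lowest reaggregate, 821 at the median and 964 in the highest. In flat cultures 1 to 4 it was 9.90, 0.954, 71.0 and 0.850 RPM. All reaggregates were high, flat culture 3 was intermediate, flat culture 1 was low, and both flat cultures of the de Bruijn lab were close to the floor. The values of flat cultures 2 and 4 rest on about 8 and 7 reads, above floors of 0.357 and 0.363 RPM. Postn rose by 6.69 on the log2 scale (SE 0.95, adjusted p = 0.000768, exact permutation p = 0.00476), the largest difference among the members in this comparison. The flat cultures were themselves spread over a ratio of 83.5. Compared with the flat cultures with no lab named, Postn differed by 4.55 (SE 0.71, adjusted p = 0.00388), and compared with those of the de Bruijn lab by 8.83 (SE 0.44, adjusted p = 7.56e-07). Over all 26 alternatives Postn was called each time, with the adjusted p between 7.56e-07 and 0.0279.

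The other fasciclin domain protein, encoded by Tgfbi (ENSMUSG00000035493, chromosome 13, 56710920 to 56740923, plus strand), is induced by TGF-β and links collagens to integrins. Tgfbi measured 20.7, 19.6, 1.85, 1.41, 29.8 and 30.0 RPM in reaggregates 1 to 6. It measured 5.18, 8.23, 7.90 and 6.44 RPM in flat cultures 1 to 4. Reaggregates 1, 2, 5 and 6 were above all flat cultures and reaggregates 3 and 4 were below all of them, so the reaggregates enclosed the flat cultures on both sides. The log2 difference of 0.58 (SE 0.81) was smaller than this spread (adjusted p = 0.598, exact permutation p = 0.581). Without reaggregates 3 and 4, an alternative chosen after seeing the data, the difference was 1.77 and was called (adjusted p = 0.00287). Without reaggregates 5 and 6 it was -0.15 (adjusted p = 0.895). The adjusted p of Tgfbi ran from 0.00287 to 0.934 over the 26 alternatives.

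Thrombospondins form trimers or pentamers that bind calcium, heparan sulfate and several cell surface receptors. Thbs1 and Thbs2 are the trimeric members, which inhibit angiogenesis through CD36 and CD47, and Thbs1 can in addition activate latent TGF-β. Thbs1 (ENSMUSG00000040152, chromosome 2, 117937612 to 117952869, plus strand) measured 467, 498, 1050, 1220, 285 and 324 RPM in reaggregates 1 to 6. Flat cultures 1 to 4 held 247, 3350, 1120 and 1870 RPM. Both flat cultures of the de Bruijn lab were above every reaggregate, flat culture 3 lay within the range of the reaggregates and flat culture 1 lay below it. Thbs1 was the sole tested member with the lower mean in reaggregates, by a log2 difference of -1.06 that did not pass the test (SE 0.65, adjusted p = 0.229, exact permutation p = 0.233). The difference was -2.19 against the de Bruijn flat cultures (adjusted p = 0.00876) and 0.06 against those with no lab named (adjusted p = 0.959), and these are the ends of the range over the 26 alternatives. Leaving out flat culture 1 gave -1.80 (adjusted p = 0.0277).

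Thbs2 (ENSMUSG00000023885, chromosome 17, 14802507 to 14831269, minus strand) measured 993 RPM in the lowest reaggregate, 1305 at the median and 2040 in the highest. Flat cultures 1 to 4 held 476, 846, 933 and 350 RPM. The groups did not overlap, although flat culture 3 came close to reaggregates 5 and 6, the lowest of their group. Thbs2 rose by 1.19 on the log2 scale (SE 0.31, adjusted p = 0.0168, exact permutation p = 0.00476). The call was made under 19 of 26 alternatives, over which the adjusted p ran from 0.00571 to 0.116. It was lost without flat culture 4, where the difference was 0.93 (adjusted p = 0.0584), and against the flat cultures with no lab named, where it was 1.04 (adjusted p = 0.0739). The other losses of the call were all with fewer or averaged reaggregates.

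Thbs3 and Thbs4 belong to the pentameric thrombospondins, which are produced in cartilage, bone and tendon. Thbs3 (ENSMUSG00000028047, chromosome 3, 89019102 to 89030759, plus strand) measured 41.0 RPM in the lowest reaggregate, 45.15 at the median and 48.1 in the highest. Flat cultures 1 to 4 held 12.5, 6.32, 25.6 and 3.28 RPM. Reaggregates were again nearly uniform, at a ratio of 1.17 between the highest and the lowest, and all flat cultures were lower, those of the de Bruijn lab most of all. Thbs3 rose by 2.23 on the log2 scale (SE 0.41, adjusted p = 0.00328, exact permutation p = 0.00476). It was called under 23 of 26 alternatives (adjusted p between 3.52e-06 and 0.0667), and the call was lost when consecutive reaggregates were averaged (adjusted p = 0.0634) or when only the reaggregates with IL-3 (adjusted p = 0.0667) or without it (adjusted p = 0.0598) were used. In these fits of fewer libraries the difference itself was 2.23, 2.23 and 2.24. The Thbs3 difference was 1.30 against the flat cultures with no lab named and 3.16 against those of the de Bruijn lab. A stretch of 318 bp, 6.59% of the Thbs3 exons, overlaps exons of Mtx1 on the opposite strand, whose reads this kit cannot separate. Mtx1 itself measured 29.0 to 40.7 RPM in reaggregates and 26.2 to 36.0 RPM in flat cultures. Thbs4 (ENSMUSG00000021702, chromosome 13, 93521545 to 93564773, minus strand) was listed at 0 in 9 libraries and at 0.000147 RPM in flat culture 3, under the floor, and was not detectable at this depth.

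Tenascin-C is a large hexameric glycoprotein of embryonic and wounded tissue that weakens adhesion to fibronectin. Tnc (ENSMUSG00000028364, chromosome 4, 63620819 to 63681760, minus strand) measured 76.8, 84.3, 16.9, 18.0, 98.0 and 85.1 RPM in reaggregates 1 to 6. Flat cultures 1 to 4 held 16.8, 57.3, 34.7 and 36.7 RPM. As for Tgfbi, reaggregates 1, 2, 5 and 6 were above every flat culture, while reaggregates 3 and 4 were as low as flat culture 1. The log2 difference in Tnc was 0.60 (SE 0.56, adjusted p = 0.431, exact permutation p = 0.391). Without reaggregates 3 and 4, again chosen after seeing the data, it was 1.35 (adjusted p = 0.0250), and the adjusted p ran from 0.0250 to 0.88 over the 26 alternatives. The Tnc difference ran from 0.14 to 1.35 over them and was 0.27 without flat culture 1. A stretch of 176 bp, 2.34% of the Tnc exons, overlaps exons of the noncoding gene 8030451A03Rik on the opposite strand. Reads from this stretch cannot be separated by strand. That gene measured 0.467 to 2.39 RPM in reaggregates and 1.3 to 4.27 RPM in flat cultures.

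Matrilin-2 forms filaments and serves as an adaptor between collagens, fibronectin and other matrix components. Matn2 (ENSMUSG00000022324, chromosome 15, 34236436 to 34366029, plus strand) measured 534 RPM in the lowest reaggregate, 658.5 at the median and 819 in the highest. Flat cultures 1 to 4 held 171, 85.9, 261 and 50.2 RPM. All reaggregates were high and all flat cultures low, with the de Bruijn flat cultures lowest. Matn2 rose by 2.49 on the log2 scale (SE 0.38, adjusted p = 0.00109, exact permutation p = 0.00476). It was called under each of the 26 alternatives, with the adjusted p between 5.73e-06 and 0.0343. The Matn2 difference was 1.65 against the flat cultures with no lab named and 3.32 against those of the de Bruijn lab.

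**Figure D2:**
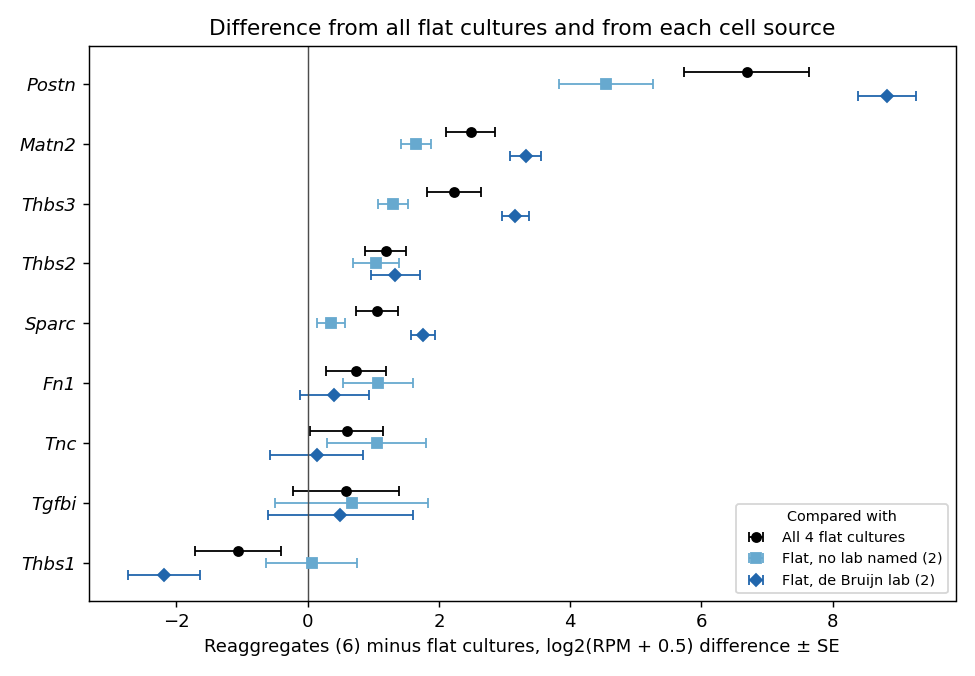
Difference between the 6 reaggregates and the flat cultures in mean log2(RPM + 0.5) for the 9 tested genes, with bars of 1 SE, against all 4 flat cultures (black circles), the 2 with no lab named (light blue squares) and the 2 of the de Bruijn lab (dark blue diamonds). Postn lies at 6.69, 4.55 and 8.83 in that order, and Thbs1 at -1.06, 0.06 and -2.19.

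Levels were compared between genes as mean RPM per kilobase of merged exons. In reaggregates this level was 1947 for Fn1, which ranked 13 among 16462 genes with an exon length. Sparc followed at 1046 RPM per kb, with rank 30. These were the highest levels of the class, and neither range overlapped its neighbor's (Fn1 1112 to 2745, Sparc 998 to 1087). The level of Thbs2 was 241 RPM per kb. Matn2 stood at 186 RPM per kb and Thbs1 at 105. Postn stood at 89.4 RPM per kb. Within this group of 4 genes, Thbs2 overlapped Matn2, Matn2 overlapped Thbs1 and Thbs1 overlapped Postn, so these neighbors do not differ beyond their spread. The range of Postn (41.1 to 123) lay above those of the genes that follow. The lowest detected levels in reaggregates were 9.33 RPM per kb for Thbs3, 8.41 for Tnc and 5.81 for Tgfbi, with ranges that overlapped. Postn has 7838 bp of merged exons but a longest coding transcript of 3202 bp, and per kilobase of that transcript its level was 219 and it stood in position 4 rather than 6.

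The order was different in flat cultures. Fn1 was again first, at 1281 RPM per kb (rank 37), and Sparc was next, at 569 (rank 142). Thbs1 followed at 271 RPM per kb, ahead of Thbs2 at 110. The ranges of these neighbors overlapped. Matn2 stood at 39.4 RPM per kb and was separated from the genes below it. Tnc stood at 4.84 RPM per kb, Postn at 2.64, Thbs3 at 2.47 and Tgfbi at 2.34, all with overlapping ranges. Per kilobase of the longest coding transcript, the mean of Postn was 6.46 in flat cultures, ahead of Tnc at 5.12. This Postn mean rested mostly on flat culture 3, at 71.0 RPM against 9.90, 0.954 and 0.850 RPM in flat cultures 1, 2 and 4. The order therefore does not hold in every flat culture.

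The flat cultures were then compared with each other by the lab named on the label, since cells kept in different laboratories were pooled in the study. Postn, Matn2, Thbs3 and Sparc were lower in both de Bruijn cultures than in both others, and Thbs1 and Tnc were higher in both. Such separation was frequent among all genes, of which 5771 (34.1%) were lower and 3090 (18.2%) higher in both de Bruijn cultures. Across all genes, 309 (1.82%) were called higher and 656 (3.87%) lower in the de Bruijn cultures, whereas none of the 9 members tested was called. Before adjustment, 3899 genes and 5 of the members had a limma p of up to 0.05. Postn differed by -4.28 (SE 0.91, adjusted p = 0.0623). The log2 difference of Matn2 was -1.68 (SE 0.39, adjusted p = 0.0739) and that of Thbs3 was -1.86 (SE 0.52, adjusted p = 0.108). Sparc differed by -1.40 (SE 0.46, adjusted p = 0.154). Thbs1 differed by 2.25 (SE 0.80, adjusted p = 0.178). The difference of Tnc was 0.91 (SE 0.45, adjusted p = 0.30). The members whose flat cultures overlapped, Fn1, Thbs2 and Tgfbi, had adjusted p-values of 0.733, 0.806 and 0.830. The median over all genes was -0.17, and 0.05 after quantile normalization, under which Postn (-3.98, adjusted p = 0.00510), Matn2 (-1.55, adjusted p = 0.0232) and Sparc (-1.63, adjusted p = 0.0497) were called lower in the de Bruijn cultures. With 2 libraries against 2, an exact permutation p cannot fall below 1 in 3, and leaving out any flat culture leaves 0 genes called.

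Adipocyte and smooth muscle markers moved with the same split of the flat cultures. The adipocyte list held 5 genes present in the table, of which 4 were above the filter, and its summed RPM in flat cultures 1 to 4 was 80.7, 832, 105.5 and 1007. Fabp4, which encodes a fatty acid carrier, had the highest RPM of the list in flat cultures 2 and 4, and Pparg had it in every other library. In reaggregates the sum was 61.1 to 92.3 RPM. The smooth muscle list, with 4 of 6 genes above the filter and Acta2 the most abundant, summed to 191, 2657, 367 and 2749 RPM in flat cultures 1 to 4 and to 84.9 to 455 RPM in reaggregates. Its defining markers Myh11 and Myocd were at or under the floor throughout. Both sums were thus highest in the cultures in which Thbs1 was highest and Postn, Matn2, Thbs3 and Sparc were lowest, and their part in these differences was not tested. Of the 4 adipocyte markers tested, 0 rose and 2 fell in reaggregates, and 3 were called higher in the de Bruijn cultures. Of the 4 smooth muscle markers tested, 0 rose and 1 fell, and 2 were called higher in the de Bruijn cultures. Over all genes tested, 7.32% rose and 6.53% fell in reaggregates, and 1.82% were called higher in the de Bruijn cultures. The adipocyte marker Pparg, a regulator of fat cell differentiation, fell by 1.67 on the log2 scale in reaggregates (SE 0.52, adjusted p = 0.0329). Pparg was called higher in the de Bruijn cultures.

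The reaggregates fell into consecutive pairs, 1 with 2, 3 with 4, and 5 with 6, each holding a culture without and a culture with IL-3. Within pairs the correlation across genes was 0.994 to 0.995, and between pairs it was 0.961 to 0.980. Genes are not independent replicates, and the labels name no pairing. Of the 9 members tested, 4 (Tnc, Tgfbi, Matn2 and Fn1) had their lowest pair mean in reaggregates 3 and 4, and 3 (Thbs1, Thbs2 and Postn) their highest. Of all genes tested, 33.0% had their lowest and 33.8% their highest mean in this pair. Mean Thbs1 was 483 RPM in reaggregates 1 and 2, 1135 in 3 and 4, and 305 in 5 and 6. Mean Tnc ran the other way, at 80.6, 17.5 and 91.6 RPM. Mean Postn was 821, 949 and 332 RPM. Reaggregates 3 and 4 thus combined high Thbs1 with low Tnc and Tgfbi, and reaggregates 5 and 6 the reverse. The ratio between the highest and the lowest reaggregate was 21.3 for Tgfbi, 5.80 for Tnc and 4.28 for Thbs1. Such differences were no larger than 2.99 for each other member tested.

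IL-3, a cytokine used to support hematopoietic progenitors, left the class with no call. No gene of the 16933 was called with limma (0%). Before adjustment 68 genes had a limma p of up to 0.05, or 564 when the consecutive pair was included as a block. Both counts are below a share of 0.05 of the genes tested, the share that chance alone gives at this limit. The largest fitted difference among the members, with minus without IL-3, was 0.16 for Thbs1 (SE 0.64, adjusted p = 1), and the smallest unadjusted limma p was 0.805. With the pair as a block, the same Thbs1 difference had an SE of 0.05 and an unadjusted limma p of 0.0155, which did not pass adjustment (adjusted p = 0.982, the lowest in a range of 0.982 to 1 over 11 alternatives). Within the pairs, Thbs1 was higher with IL-3 by 0.09, 0.22 and 0.18 on the log2 scale. Matn2 was likewise higher in 3 of 3 pairs, by 0.02, 0.06 and 0.03. The largest absolute difference within a pair was 0.30, for Tgfbi in reaggregates 3 and 4. No member was lower with IL-3 in all pairs. With 3 libraries against 3, an exact permutation p cannot fall below 0.1.

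Relatives of the members in the same protein families were examined next. Of 28 listed genes, 27 were in the table and 22 were tested. Of these, 8 rose and 2 fell in reaggregates, at a median log2 difference of 0.80, against 7.32% and 6.53% of all genes. Every reaggregate exceeded every flat culture for only 4 of the 22, against 7.8% of all genes, and for none of the tenascins. Among the relatives that rose were 2 of 3 other tenascins, 2 of 2 tested matrilins, 2 of 4 genes of the SPARC family and 1 of 3 SIBLING proteins, while among 5 CCN proteins 1 rose and 1 fell. None of the other families held a gene that rose. The thrombospondin relative Comp had a log2 difference of -1.67 (SE 0.97, adjusted p = 0.204) and was called higher in the de Bruijn cultures, by 4.45 (SE 0.47, adjusted p = 0.0114). Neither fasciclin domain relative was called, and of 2 spondins 1 fell. Dmp1, a SIBLING protein of mineralizing matrix, measured 8.85 to 16.7 RPM in reaggregates and 0.115, 0, 2.16 and 0 RPM in flat cultures 1 to 4. All flat cultures were below every reaggregate, and the difference was 3.87 (SE 0.44, adjusted p = 0.000223). Flat cultures 1, 2 and 4 were under the floor for Dmp1, and its difference was 5.42 with 0.1 RPM added before the logarithm and 3.16 with 1 RPM. Sparcl1, a relative of Sparc with the same collagen-binding domains, had a median of 265 RPM in reaggregates against 83.6, 10, 159 and 9.47 RPM in flat cultures 1 to 4. Sparcl1 rose by 2.95 (SE 0.68, adjusted p = 0.00924) and was also called lower in the de Bruijn cultures, as was the CCN protein gene Wisp1. Wisp1 rose by 2.37 on the log2 scale in reaggregates (SE 0.46, adjusted p = 0.00416). Matn3, a cartilage matrilin, rose by 1.72 (SE 0.40, adjusted p = 0.00923). Its mean was 5.70 ± 1.13 RPM (SD, n = 6) in reaggregates, compared with 1.71 ± 1.32 RPM (SD, n = 4) for the flat group. The difference of Matn3 was 2.11 with 0.1 RPM added and 1.44 with 1 RPM.

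Receptors through which these proteins act were considered as a separate list. Of 19 genes for integrin subunits, thrombospondin receptors and syndecans, 3 rose and 0 fell, at a median of 0.22. Over all genes tested, 7.32% rose and 6.53% fell in reaggregates, and 1.82% were called higher and 3.87% lower in the de Bruijn cultures. None of the 5 thrombospondin receptors and co-receptors was called in this comparison, but 2 of them were called higher in the de Bruijn flat cultures. Over the whole list of receptors 2 were called higher and 3 lower in those cultures, the latter being 2 integrin subunits and 1 syndecan. Cd36 was higher there by 3.85 (SE 0.30, adjusted p = 0.00662), at 91.5 to 109 RPM against 5.64 to 7.42 RPM. Cacna2d1, a calcium channel subunit gene, was higher there by 3.65 (SE 0.41, adjusted p = 0.0127), at 28.1 to 35.4 RPM against 1.5 to 2.76 RPM. Itga8, an integrin subunit that pairs with the β subunit encoded by Itgb1, had a median of 7.59 RPM in reaggregates and 0.921, 0.358, 2.26 and 0.121 RPM in flat cultures 1 to 4. It rose by 2.83 (SE 0.44, adjusted p = 0.00118), a size that depends on the added RPM (3.53 with 0.1 and 2.37 with 1). Sdc2, a heparan sulfate proteoglycan of the cell surface, had a median of 1320 RPM in reaggregates and 513, 120, 412 and 99.8 RPM in flat cultures 1 to 4. Sdc2 rose by 2.41 (SE 0.47, adjusted p = 0.00435) and was called lower in the de Bruijn cultures, where Sparc and Matn2 were also low.

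Enzymes that crosslink or cleave matrix formed the next list, of which 5 of 12 rose and 0 fell, at a median of 1.22. Over all genes tested, 7.32% rose and 6.53% fell. Every reaggregate exceeded every flat culture for 7 of the 12, against 7.8% of all genes, and 11.4% of all genes lay below every flat culture. For 1, the secreted proteinase gene Htra1, every reaggregate was below every flat culture, at a log2 difference of -0.96 that missed the 2-fold limit (SE 0.19, adjusted p = 0.00471). Mmp14, the membrane-bound proteinase that activates Mmp2, measured 1810 to 2050 RPM in reaggregates and 225, 241, 431 and 137 RPM in flat cultures 1 to 4. It rose by 3.05 (SE 0.26, adjusted p = 5.79e-05). Mmp2, a gelatinase, measured 2150 to 2390 RPM in reaggregates and 244, 317, 518 and 179 RPM in flat cultures 1 to 4. Mmp14 and Mmp2 were as uniform among reaggregates as Sparc and Thbs3, and Mmp2 rose by 2.97 (SE 0.25, adjusted p = 5.79e-05). Mmp9, the other gelatinase, rose by 4.15 (SE 0.65, adjusted p = 0.00129) to a mean of 24.95 ± 11.4 RPM (SD, n = 6). Flat cultures 2 and 4 were under the floor for Mmp9, and the difference was 5.22 with 0.1 RPM added and 3.59 with 1 RPM. Adamts1, a proteinase with thrombospondin type repeats, rose by 2.26 (SE 0.43, adjusted p = 0.00373), and like Tnc and Tgfbi it was lowest in reaggregates 3 and 4, at 172 and 165 RPM.

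Genes of the TGF-β axis, which controls the transcription of several members and is in turn affected by Thbs1, rose in 3 of 11 cases and fell in 0, at a median of 0.66. In the de Bruijn flat cultures 3 of the 11 were called higher and 0 lower. Over all genes tested, 7.32% rose and 6.53% fell in reaggregates, and 1.82% were called higher and 3.87% lower in the de Bruijn cultures. Tgfb3, a ligand, had a median of 245 RPM in reaggregates and 51.5, 36.6, 109 and 33.9 RPM in flat cultures 1 to 4. Tgfb3 rose by 2.07 (SE 0.32, adjusted p = 0.00129). Ltbp3, which holds latent TGF-β in the matrix, rose by 1.18 (SE 0.27, adjusted p = 0.00853).

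Markers of the cell type were examined beside these results. Stromal genes, which include collagens that Sparc and Postn bind, rose in 5 of 7 tested cases, against 7.32% of all genes tested. Their summed RPM was 14660 to 22020 in reaggregates and 5701, 8694, 11950 and 6241 in flat cultures 1 to 4. Col1a2 had the highest RPM of the list except in flat cultures 2 and 4, where Cxcl12 did. Thy1 was at or under the floor in every library. The other 2 tested genes had the lower mean in reaggregates and were not called. Cxcl12, which encodes a chemokine that retains hematopoietic cells, averaged 1238 ± 806 RPM over the reaggregates (SD, n = 6). In the flat group Cxcl12 averaged 2334 ± 2264 RPM (SD, n = 4), with 3990 to 4560 RPM in the de Bruijn cultures and 125 to 662 RPM in the others. Mcam, an adhesion molecule gene, ranged from 1.59 to 7.43 RPM in reaggregates and from 1.96 to 9.10 RPM in flat cultures. Among the stromal genes that rose, Col1a2 rose by 1.83 (SE 0.41, adjusted p = 0.00787) and Col1a1 by 1.93 (SE 0.41, adjusted p = 0.00643). The growth factor receptor genes Pdgfrb and Pdgfra rose by 1.74 (SE 0.26, adjusted p = 0.00103) and 1.58 (SE 0.19, adjusted p = 0.000304).

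Osteoblast markers, of which 5 of 6 were in the table, summed to 72.0 to 116.5 RPM in reaggregates and to 38.0, 49.5, 78.3 and 41.4 RPM in flat cultures 1 to 4. Runx2 was the most abundant, and of the 5 tested only Dmp1 was called between reaggregates and flat cultures. Between the flat cultures by lab, Sp7 was called higher in the de Bruijn cultures by 1.33 (SE 0.25, adjusted p = 0.0476). Alpl was called lower there, at a log2 difference of -3.85 (SE 0.35, adjusted p = 0.00836). Chondrocyte markers summed to 396 to 495 RPM in reaggregates and to 833, 1039, 1624 and 1126 RPM in flat cultures 1 to 4. Most of this was Col2a1, which fell by 2.06 on the log2 scale (SE 0.20, adjusted p = 0.000101), while Sox9 rose by 1.56 (SE 0.23, adjusted p = 0.000978). Acan was at 0 in all libraries, and Matn1 and Col9a1 were at or under the floor. The osteoblast list shares Ibsp and Dmp1, and the chondrocyte list Comp and Matn1, with the family relatives. Endothelial markers reached at most 1.23 RPM in sum, led by Pecam1 in most libraries, with Cdh5, Kdr, Emcn and Tie1 at or under the floor. Blood markers summed to 3.21 to 8.79 RPM in reaggregates and 2.39 to 9.38 RPM in flat cultures, led by Cd68, and Ptprc was at 0 in all libraries.

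Immediate early and heat shock genes, which respond to handling, rose in 6 of 10 cases at a median log2 difference of 1.88. Only for 1 of the 10 did every reaggregate exceed every flat culture, and the others overlapped. Over all genes tested, 7.32% rose, and 7.8% had every reaggregate above every flat culture. Their summed RPM was 2024 to 2567 in reaggregates and 478.5, 798, 2912 and 859.5 in flat cultures 1 to 4, with Egr1 the most abundant by the mean over all libraries. Flat culture 3, in which Postn, Thbs2, Thbs3 and Matn2 were highest among flat cultures, was thus also the highest library for this sum. Atf3, a stress-responsive transcription factor gene, rose by 4.08 (SE 0.63, adjusted p = 0.00124), and in flat cultures 1 to 4 it measured 3.80, 1.67, 31.5 and 1.46 RPM. The part of these genes in the differences of the members was not tested.

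For each member the genes with the most similar profile were found among 11661 genes with a mean of at least 5 RPM, by the root mean square difference of centered log2 values over the 10 libraries. Thbs3 had the closest match, Amot, at 0.11, and then Gpc6 at 0.17. Sparc was followed most closely by Jam2 at 0.15 and Gnb5 at 0.16. Thbs2 was nearest to Lamc1, a laminin chain gene, at 0.19 and Slc4a4 at 0.20. The profile of Matn2 was nearest to Pcdh18 at 0.25 and Wisp1 at 0.27. Thbs1 resembled Itih2 at 0.25 and Epha4 at 0.34. Fn1 was nearest to Lrp1, an endocytic receptor gene that also binds thrombospondins, at 0.19. The next match of Fn1, Apol7d at 0.21, overlaps Fn1 exons over 292 bp on the opposite strand, and its reads cannot be separated from those of Fn1. Tnc was nearest to Rgmb at 0.36 and Gpnmb at 0.45. The nearest profile to Tgfbi was that of Tnc at 0.57, followed by Plxdc1 at 0.62. Postn had no near match, with Igfbp5 at 0.84 and D0H4S114 at 0.85. Igfbp5, which encodes a binding protein of insulin-like growth factors, measured 183 to 329 RPM in reaggregates and 12.5, 0.239, 19.2 and 0 RPM in flat cultures 1 to 4, and was thus also close to absent in the de Bruijn cultures.

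Promoter sequences, from 250 bases before to 50 bases after the start of transcription, were available from RefSeq (GRCm38.p6) for 7 of the 10 members in 9 entries, including 4 of the 5 genes that rose. No entry was given for Matn2, Thbs1 or Fn1. Each was searched on both strands for TATAAA (the TATA box), CCAAT (the CCAAT box), TGANTCA (bound by AP-1) and GGAATG (bound by TEAD factors), which were found in 13.6%, 37.4%, 7.81% and 14.7% of 32851 promoters. TATAAA occurred in 3 of the 7 members, Postn, Thbs2 and Tnc, and the entries of Tnc overlap and hold the same match. The motif CCAAT occurred in 3 members, Postn, Thbs2 and Thbs3. GGAATG occurred in 1, Thbs4, and TGANTCA in 0. The shares among all promoters count entries rather than genes. Of the 9 member entries, 4 held TATAAA, 3 CCAAT, 0 TGANTCA and 1 GGAATG. Sparc held none of the 4 motifs. The promoters of Postn (chr3:54360857-54361156, plus strand), Thbs2 (chr17:14694213-14694512, minus strand) and Thbs3 (chr3:89214930-89215229, plus strand) are shown because these genes rose together in reaggregates and hold a motif. Capitals mark TATAAA or CCAAT, read on either strand, and the matches do not overlap.
Postn: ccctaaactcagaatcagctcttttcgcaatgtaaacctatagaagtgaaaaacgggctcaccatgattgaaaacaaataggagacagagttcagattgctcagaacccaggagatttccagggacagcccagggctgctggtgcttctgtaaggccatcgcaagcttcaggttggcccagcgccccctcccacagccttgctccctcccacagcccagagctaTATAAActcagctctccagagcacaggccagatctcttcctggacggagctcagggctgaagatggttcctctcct
Thbs2: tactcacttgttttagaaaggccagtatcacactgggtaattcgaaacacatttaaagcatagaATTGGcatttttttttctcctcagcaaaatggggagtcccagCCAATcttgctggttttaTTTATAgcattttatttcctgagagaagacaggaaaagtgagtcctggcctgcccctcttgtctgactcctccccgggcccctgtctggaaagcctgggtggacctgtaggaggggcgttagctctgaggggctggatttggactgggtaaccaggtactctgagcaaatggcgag
Thbs3: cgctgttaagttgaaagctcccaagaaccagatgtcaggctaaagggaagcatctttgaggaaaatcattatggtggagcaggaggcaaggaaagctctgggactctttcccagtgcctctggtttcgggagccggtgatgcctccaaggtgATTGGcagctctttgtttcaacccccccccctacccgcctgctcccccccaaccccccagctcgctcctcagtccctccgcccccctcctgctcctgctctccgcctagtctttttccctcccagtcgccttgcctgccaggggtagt
In Postn, TATAAA begins 26 bases before the start of transcription. In Thbs2 it lies 126 bases before the start on the opposite strand, with CCAAT matches 186 and 144 bases before it. In Thbs3 a CCAAT match lies 98 bases before the start. The other Postn entry (chr3:54359017-54359316, plus strand) holds a CCAAT match 25 bases after its start. These matches describe the letters in the windows and are no test of binding.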

How the data were processed

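OP9 cells were profiled by RNA sequencing in 6 reaggregates and 4 flat cultures. The authors aligned about 10 M reads per library to NCBI37/mm9 with TopHat 1.2.0, divided reads with several positions in proportion, and deposited RPM for Ensembl 58 genes. The authors also deposited log2 fold change and p-value columns from DESeq, which were not used. Between 59.9% and 63.1% of values up to 1 RPM were whole multiples, within 1%, of the value taken as a single read, so no count test was run.

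Genes above 0.5 RPM in at least 1 library (16933 of 26888) were fitted with limma 3.58.1 in R 4.3.3 on log2(RPM + 0.5), with a variance trend, and p-values were adjusted over all of them by the Benjamini-Hochberg method. The fit was tested on simulated data. Separate fits compared reaggregates with flat cultures, IL-3 within reaggregates, and the lab named within flat cultures. Single members were also tested by exact two-sided permutation. Figures and tables were made with Python 3.11.15, pandas 2.3.3 and matplotlib 3.10.9.

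Exon lengths and positions came from the Ensembl 65 annotation of the same build, and promoters from RefSeq. Alternatives changed the pseudocount (0.1 or 1), the filter (none, or above 1 RPM in at least 4 libraries), the scaling (quantile or median ratio), the variance trend, the libraries used and the block. The members, lists and motifs were chosen with earlier results of these data known. Beside the members, the named genes were up to 4 per list with the largest called difference, no overlap between groups and a group mean of at least 5 RPM, the most abundant marker and markers at 0, and the 2 most similar profiles per member. Mtx1, Sp7, Alpl, Cxcl12, Mcam, Comp, Cd36, Cacna2d1 and Htra1 were added after their values were seen. Of 130 listed symbols, 126 were matched, and Bglap, Lep, Spi1 and Wisp3 were not analysed here.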

Additional observations from a re-analysis of the deposited data

Results flagged for a closer look

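Among flat cultures, Postn in culture 3 stood far from the others on the RPM scale. It measured 71.0 RPM against 9.90, 0.954 and 0.850 RPM in flat cultures 1, 2 and 4, and its gap to the next culture was 0.871 of the whole range. On the log2 scale the same culture did not stand apart. There were 18 groups examined on 2 scales, with 1 such result, and chance gives about 1 in 20 groups. Without flat culture 3 the difference of Postn between reaggregates and flat cultures was 7.86 (adjusted p = 3.54e-05, in a range of 7.56e-07 to 0.0279 over the alternatives). The cause was not tested.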

How the results depend on the processing

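Between reaggregates and flat cultures, over 26 alternatives 201 member differences kept their direction and their side of the threshold, 26 lost the call, 4 gained it and 3 turned. Postn and Matn2 were called under all 26. Genes called higher numbered 277 with only the reaggregates given IL-3, 345 with only those without it, 2579 against the de Bruijn flat cultures, 627 against those with no lab named and 312 with consecutive reaggregates averaged. Members called higher were 2, 2, 5, 3 and 2 in the same order. Genes called lower were 360, 474, 1775, 1044 and 429, and 1 member, Thbs1, was called lower against the de Bruijn cultures. Fewer libraries were compared in each case. In alternatives chosen after seeing the data, 611 genes and 3 members were called higher without reaggregates 1 and 2, and 1898 genes without reaggregates 5 and 6. Leaving out 1 library at a time gave 766 to 2121 genes and 3 to 5 members called higher, and 0 to 1 members called lower. The direction turned for Thbs1 against the flat cultures with no lab named (0.0627) and for Tgfbi without reaggregates 5 and 6 (-0.15).

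Reaggregates and flat cultures share replicate numbers, but the numbers do not pair them, as deviations of same-numbered libraries correlated at -0.041, -0.213, 0.072 and 0.155. With the number as a replicate block, 1884 genes were called higher and 1154 lower, and Tgfbi stood at -0.15. Reaggregates 5 and 6 have no partner under this block.

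IL-3 gave 0 calls among all genes under each of 11 alternatives, and member differences turned sign in 24 cases and did not in 75. The 75 include Fn1 under quantile normalization, where its difference was 0. Under quantile normalization the turned values were Postn (0.0109) and Sparc (0.0318). Leaving out 1 reaggregate gave ranges of -0.37 to 0.67 for Thbs1, -0.23 to 0.28 for Thbs2, -0.0503 to 0.0547 for Thbs3 and -0.77 to 0.74 for Tnc. The ranges were -0.54 to 0.41 for Postn, -1.27 to 1.11 for Tgfbi, -0.0444 to 0.0169 for Sparc, -0.11 to 0.18 for Matn2 and -0.43 to 0.25 for Fn1.

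By lab within flat cultures, genes called higher in the de Bruijn cultures numbered 70 and genes called lower 134 without a filter on low values. Under quantile normalization 791 genes were called higher and 972 lower, and 3 members, Postn, Matn2 and Sparc, were among the latter. Leaving out 1 culture gave 0 genes in either direction. It leaves a lone library in an arm, which is assumed to vary like the others. Over these fits Thbs2 ran from -0.93 to 0.34, Tgfbi from -0.11 to 0.45 and Fn1 from -0.10 to 1.42. Thbs1 ran from 1.16 to 3.34 and Postn from -5.67 to -2.89. Causes of these shifts were not tested. Depth limits Thbs4, Postn in flat cultures 2 and 4, and the flat levels of Dmp1, Mmp9, Itga8 and Matn3.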
